A study of Mus musculus with 6 samples.

Results

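The genes described here encode the enzymes, the carrier and the regulators that break down the branched-chain amino acids leucine, isoleucine and valine in mitochondria. They are the 10 named genes Bcat2, Bckdha, Bckdhb, Dbt, Bckdk, Ppm1k, Ivd, Mccc1, Mccc2 and Slc25a44, out of 16538 genes listed in the RNA-Seq data. The 10 were chosen by their place in the pathway, but with earlier results of these data known. All 10 were listed, and all 10 passed the filter on low values (a mean of at least 10) that left 13855 genes for testing. RNA was measured in whole inguinal white adipose tissue (iWAT) of mice housed at 8°C, for 10 days per the sample labels and 12 days per the text of the study. The 3 control samples (labelled wt) came from fl/fl littermates, and both groups thus carried the floxed Nrg4 allele. The 3 AKO samples (labelled NRG4-AKO) came from mice in which Nrg4, a secreted factor of fat cells, was deleted by Adiponectin-Cre, which is active in adipocytes and leaves the gene intact in other cells of the depot. Each sample was a pool of RNA from 2 mice, no group was kept warm, and the age and sex of these mice are not given in the sources used here. The comparison asked how loss of adipocyte Nrg4 bore on transcripts of this pathway in cold-acclimated iWAT. The targeted gene itself, counted over all its exons and not over the floxed part alone, had normalized counts of 3128, 3102 and 3092 in control and 2577, 2627 and 2691 in AKO samples, lower in every AKO sample (log2 fold change -0.24, adjusted p = 0.298 by limma). By qPCR, another measure, the study reported Nrg4 mRNA as nearly absent in iWAT and brown fat of AKO mice. Why these measures differ was not tested.

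Branched-chain amino acid breakdown starts in mitochondria with a reversible transfer of the amino group, which leaves a branched-chain 2-oxoacid. The branched-chain 2-oxoacid dehydrogenase complex (BCKDH) then removes the carboxyl group in an irreversible step that a dedicated kinase turns down and a dedicated phosphatase turns up, and each amino acid continues along its own branch to acetyl-CoA, acetoacetate or propionyl-CoA. Adipocytes are a well-known site of this pathway, and in cold-activated brown fat the mitochondrial carrier SLC25A44 brings branched-chain amino acids to it as fuel.

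For the leucine branch, the promoter sequences of Ivd, Mccc1 and Mccc2 are shown, because these genes encode consecutive steps of a single route and 2 of them form a single enzyme. The sequences are from RefSeq (assembly GRCm38.p6), read 5′ to 3′ on the strand of the gene, and end just before the annotated gene start. Capitals mark the CCAAT box (CCAAT, or ATTGG where it lies on the opposite strand), the GC box (GGGCGG, or CCGCCC on the opposite strand) and the E-box CACGTG.
Ivd, chr2:118861744-118861953, plus strand: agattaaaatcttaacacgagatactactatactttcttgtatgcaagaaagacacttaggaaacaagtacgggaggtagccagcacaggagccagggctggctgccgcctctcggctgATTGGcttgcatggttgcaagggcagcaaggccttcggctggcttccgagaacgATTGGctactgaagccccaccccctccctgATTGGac
Mccc1, chr3:36000679-36000928, minus strand: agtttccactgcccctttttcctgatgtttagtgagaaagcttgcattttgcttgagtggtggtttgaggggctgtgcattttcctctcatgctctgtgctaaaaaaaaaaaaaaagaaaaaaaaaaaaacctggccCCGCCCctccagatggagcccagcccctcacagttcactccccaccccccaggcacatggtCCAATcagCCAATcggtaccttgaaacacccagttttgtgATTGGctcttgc
Mccc2, chr13:100015640-100015889, minus strand: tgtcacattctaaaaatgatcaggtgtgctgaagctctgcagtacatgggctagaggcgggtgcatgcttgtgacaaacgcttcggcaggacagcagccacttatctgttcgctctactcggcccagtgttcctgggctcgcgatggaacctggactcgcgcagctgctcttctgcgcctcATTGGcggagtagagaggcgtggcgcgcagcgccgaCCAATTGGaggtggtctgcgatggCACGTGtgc

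Each of the 3 printed stretches holds the CCAAT box 3 times, and in Mccc2 a forward and a reverse copy overlap. The motif is common, since 33.8% of all 32851 windows of 250 bases before an annotated start held at least 1 copy on either strand, while 2.79% held 3 or more. Windows were found for 8 of the 10 genes, and Dbt and Slc25a44 are only named here. CCAAT occurred in a window of 6 of these 8 genes (Bckdhb, Bckdk, Ivd, Mccc1, Mccc2 and Ppm1k). Outside the 3 printed genes, no window of these genes held more than 2 copies (Bckdhb and Ppm1k). The GC box GGGCGG occurred in a window of 3 genes (Bckdhb, Mccc1 and Ppm1k), against 32.7% of all windows, and the E-box CACGTG in that of Mccc2 alone, against 6.02%. The other motifs searched on both strands, CCGGAAG (6.91% of all windows), TGACGTCA (1.55%), the palindromic NRF1 motif (0.782%), TCAAGGTCA (0.387%) and the PPAR DR1 motif (0.0335%), had 0 matches in the windows of these genes. CCAAT was added to the motifs after the sequences had been read, so its count is a description of letters and no test.

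At the level of the whole list, the 10 transcripts were lower in AKO iWAT by small amounts, and none passed the test. The mean in AKO differed from the control mean by between -3.28% (Bckdhb) and -18.0% (Ppm1k). All 10 log2 fold changes (AKO against control) were below 0, as were 48.1% of those of all tested genes, and their median was -0.22 against 0.01 over all genes. The median of the 10 was -0.14 without control replicate 1 and -0.15 without AKO replicate 2. The smallest adjusted p among the 10 was 0.373 (limma with Benjamini-Hochberg adjustment over 13855 genes), and 0 of the 10 were called, where 0.00722% of tested genes were called lower (1 gene) and 0.0144% in either direction (2 genes). The count was also 0 in edgeR (0.0144% of genes called in either direction) and in DESeq2 (0.757% called lower and 0.998% in either direction), both on reads recovered from the normalized values. Without adjustment, 5 of the 10 had a p under 0.05 in limma (Bckdha, Dbt, Ivd, Mccc1 and Mccc2), all of them lower, against 4.69% of all genes. That count was 1 without control replicate 2 (2.76% of all genes lower), 1 without AKO replicate 2 (3.52%) and 2 without AKO replicate 1 (3.49%) or in edgeR (4.10%). In 5 of the 10 (Bckdha, Dbt, Bckdk, Mccc1 and Mccc2) every AKO sample lay below every control sample, against 8.31% of all genes, and in 0 of the 10 did every AKO sample lie above, against 6.14%. Without control replicate 3, the count with every AKO sample below was 8, against 13.5% of all genes with the same samples, and leaving out any other sample gave 5 or 6 of the 10, against 11.4% to 15.1%. In whole tissue, fewer cells of a type and less RNA per cell cannot be told apart.

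**Figure D1:**
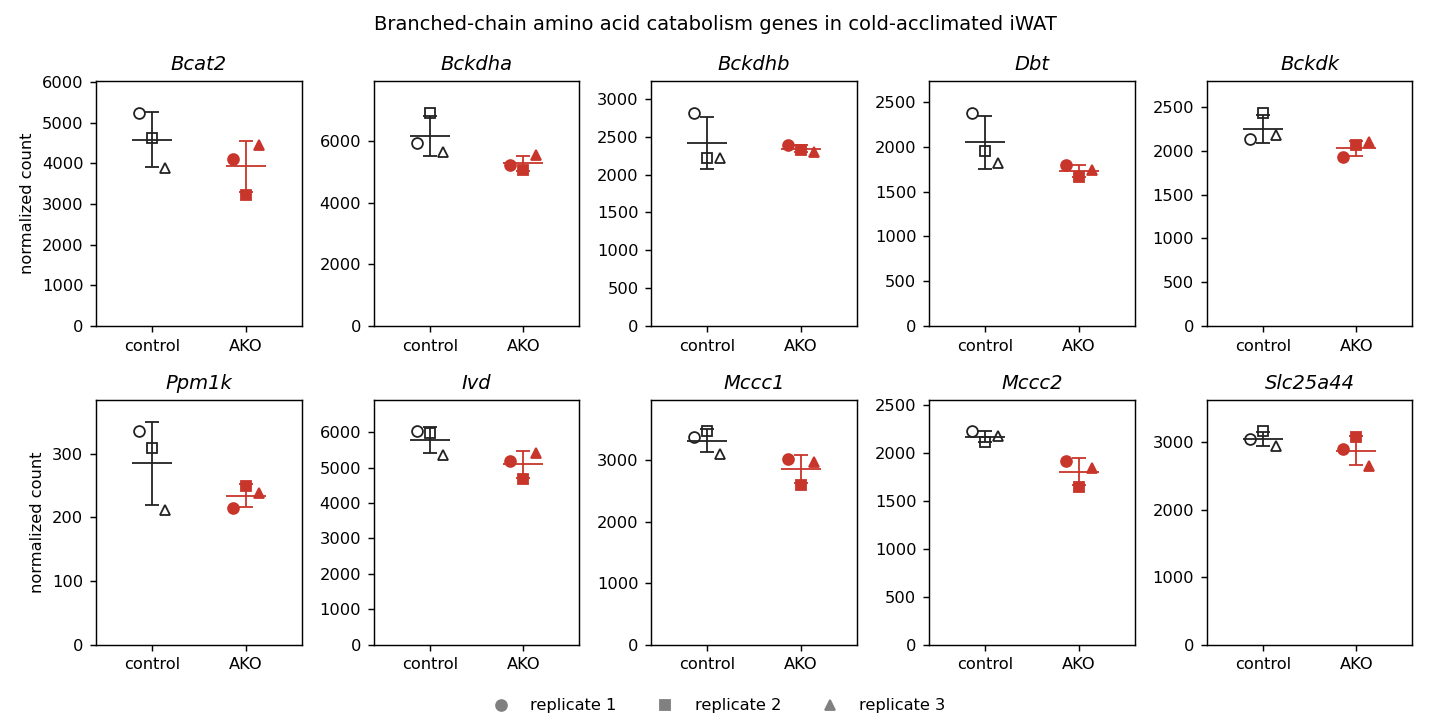
Normalized count (reads divided by a size factor, linear axis from 0) of the 10 genes in 3 control samples (open symbols) and 3 AKO samples (filled symbols), with symbol shape giving the replicate number, a line for the mean and bars for 1 SD. The groups separate without overlap in Bckdha, Dbt, Bckdk, Mccc1 and Mccc2, and each of the 10 genes has its highest value in a control sample.

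The values below are normalized counts, that is, reads per gene divided by a size factor for the sample, without correction for gene length, given for control replicates 1, 2 and 3 and then AKO replicates 1, 2 and 3. Slc25a44 (ENSMUSG00000050144, chromosome 3, 88410498 to 88425139, minus strand, GRCm38) encodes the carrier that moves branched-chain amino acids across the inner mitochondrial membrane. Its values were 3048, 3163 and 2943 in control and 2905, 3084 and 2651 in AKO iWAT. AKO replicate 2 lay above 2 of the control samples, so the groups overlapped. The means were 3051 ± 109.9 and 2880.1 ± 218 (SD, n = 3 each), and the log2 fold change was -0.09 with a 95% interval from -0.25 to 0.08 (limma, adjusted p = 0.784). It was -0.14 without AKO replicate 2 and -0.027 without AKO replicate 3.

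Bcat2 (chromosome 7, 45570153 to 45589711, plus strand) encodes the mitochondrial branched-chain aminotransferase, which performs the first reaction. It measured 5238, 4626 and 3887 in control and 4102, 3223 and 4453 in AKO iWAT. Control replicate 3 lay below 2 of the AKO samples and AKO replicate 2 stood lowest of all. Its group means were 4584 ± 677 and 3926 ± 634 (SD, n = 3 each), and the log2 fold change of -0.23 had an interval from -0.56 to 0.11 (limma, adjusted p = 0.690). The log2 fold change was -0.090 without AKO replicate 2 and -0.12 without control replicate 1. The cytosolic counterpart Bcat1 was barely present, at 49.2, 55.9 and 68.1 in control and 62.4, 63.5 and 66.5 in AKO samples. Of the exonic bases of Bcat2, 15.9% overlap 0610005C13Rik on the opposite strand. Per kilobase of transcript, the control mean of Bcat2 was 115 times that of Bcat1.

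The BCKDH complex consists of a decarboxylase (E1), made of the alpha subunit Bckdha and the beta subunit Bckdhb, an acyltransferase core (E2, Dbt) and the dihydrolipoyl dehydrogenase (E3, Dld) that it shares with other complexes. Bckdha (chromosome 7, 25629946 to 25658981, minus strand), whose product carries the regulatory phosphorylation sites, had 5915, 6899.6 and 5642 in control and 5218, 5069 and 5543 in AKO samples. All AKO samples were lower than all controls, and the highest AKO sample was close to the lowest control. The means of Bckdha were 6152 ± 662 and 5277 ± 242 (SD, n = 3 each), with a log2 fold change of -0.22 and an interval from -0.42 to -0.02 (limma, adjusted p = 0.522), and without control replicate 2 the log2 fold change was -0.13. Of the exonic bases of Bckdha, 61.7% overlap B3gnt8 on the opposite strand, and whether counting used strand is not given in the sources used here. B3gnt8 itself had values between 48.0 and 76.2 in the 6 samples.

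Bckdhb (chromosome 9, 83925145 to 84124240, plus strand) had values of 2813, 2224 and 2220.1 in control and 2389, 2326 and 2304 in AKO samples. The AKO samples lay between the control samples, of which replicate 1 stood well above the others. This gene had the smallest difference of the 10, a log2 fold change of -0.04 with an interval from -0.26 to 0.18 (limma, adjusted p = 0.944), and without control replicate 1 it was 0.074. Dbt (chromosome 3, 116513070 to 116549981, plus strand) had values of 2378, 1949 and 1819.6 in control and 1797, 1659 and 1740.2 in AKO samples. Here too control replicate 1 was the highest, while every AKO sample was below every control by a narrow margin. For Dbt, the log2 fold change was -0.23 with an interval from -0.47 to -0.002 (limma, adjusted p = 0.542), and without control replicate 1 it was -0.12. The shared subunit Dld, not among the 10, stood at 6017, 6615 and 6102 in control and 5337, 5265 and 5291 in AKO samples (log2 fold change -0.24, adjusted p = 0.358 by limma).

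The E1 enzyme is inactivated by the kinase Bckdk and reactivated by the phosphatase Ppm1k. Bckdk (chromosome 7, 127904082 to 127910221, plus strand) had values of 2131, 2430.4 and 2179 in control and 1931, 2060.00 and 2094 in AKO samples. The groups did not overlap, but the gap between the lowest control and the highest AKO sample was small. The kinase had a log2 fold change of -0.15 with an interval from -0.31 to 0.02 (limma, adjusted p = 0.589), and without control replicate 2 it was -0.088. Ppm1k (chromosome 6, 57506502 to 57535468, minus strand) had the lowest values, 335, 309.7 and 211 in control and 214, 249 and 239 in AKO samples. Control replicate 3 was the lowest sample of all, so the groups overlapped and the control samples spread more than the AKO samples. Its log2 fold change was -0.26 with the widest interval of the 10, from -0.66 to 0.14 (limma, adjusted p = 0.708). It was -0.13 without control replicate 1 and -0.46 without control replicate 3.

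Since a ratio of transcripts within a sample does not depend on how that sample was scaled, kinase and phosphatase were also compared sample by sample. The ratio of Bckdk to Ppm1k was 6.36, 7.85 and 10.3 in control and 9.02, 8.27 and 8.76 in AKO samples. All AKO values fell inside the control range, and the difference of the mean log2 ratio was 0.11 (2-sided exact permutation p = 0.7, where 3 against 3 samples allow no p below 0.1). Without control replicate 1 this difference was -0.052. The ratio of the kinase to its substrate subunit Bckdha was 0.360, 0.352 and 0.386 in control and 0.370, 0.406 and 0.378 in AKO samples, again overlapping (log2 difference 0.07, 2-sided exact permutation p = 0.3). This log2 difference was 0.031 without AKO replicate 2 and 0.11 without control replicate 3.

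In the leucine branch, Ivd (chromosome 2, 118861954 to 118882909, plus strand) encodes isovaleryl-CoA dehydrogenase, which passes electrons to the respiratory chain through electron transfer flavoprotein. Its values were 6027, 5972 and 5364 in control and 5186, 4677 and 5432 in AKO samples. Only control replicate 3 and AKO replicate 3 crossed, by a small margin. The group means of Ivd were 5788 ± 368 and 5098 ± 385 (SD, n = 3 each), and the log2 fold change was -0.18 (limma, unadjusted p = 0.0498 and adjusted p = 0.548).

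Mccc1 and Mccc2 encode the biotin-carrying and the carboxyl-transferring subunit of methylcrotonyl-CoA carboxylase, the next reaction after Ivd and its neighbor in the pathway. Mccc1 (chromosome 3, 35959312 to 36000678, minus strand) had values of 3377, 3467 and 3108 in control and 3015, 2599.9 and 2965 in AKO samples. Every AKO sample was below every control, and AKO replicate 2 was clearly the lowest. Its log2 fold change was -0.22 with an interval from -0.40 to -0.04 (limma, adjusted p = 0.505). Mccc2 (chromosome 13, 99948530 to 100015639, minus strand) had values of 2222, 2112 and 2170.3 in control and 1917, 1644 and 1843 in AKO samples. The control samples of Mccc2 lay close together and above all AKO samples. The means were 2168 ± 54.9 and 1801 ± 141 (SD, n = 3 each), a difference of -16.9%. Mccc2 had the largest log2 fold change of the 10, -0.27 with an interval from -0.44 to -0.10, and the smallest p, 0.00572 before adjustment and 0.373 after it (limma). Over the alternatives tried, the adjusted p of Mccc2 ran from 0.146 (DESeq2 on recovered reads) to 0.718.

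**Figure D2:**
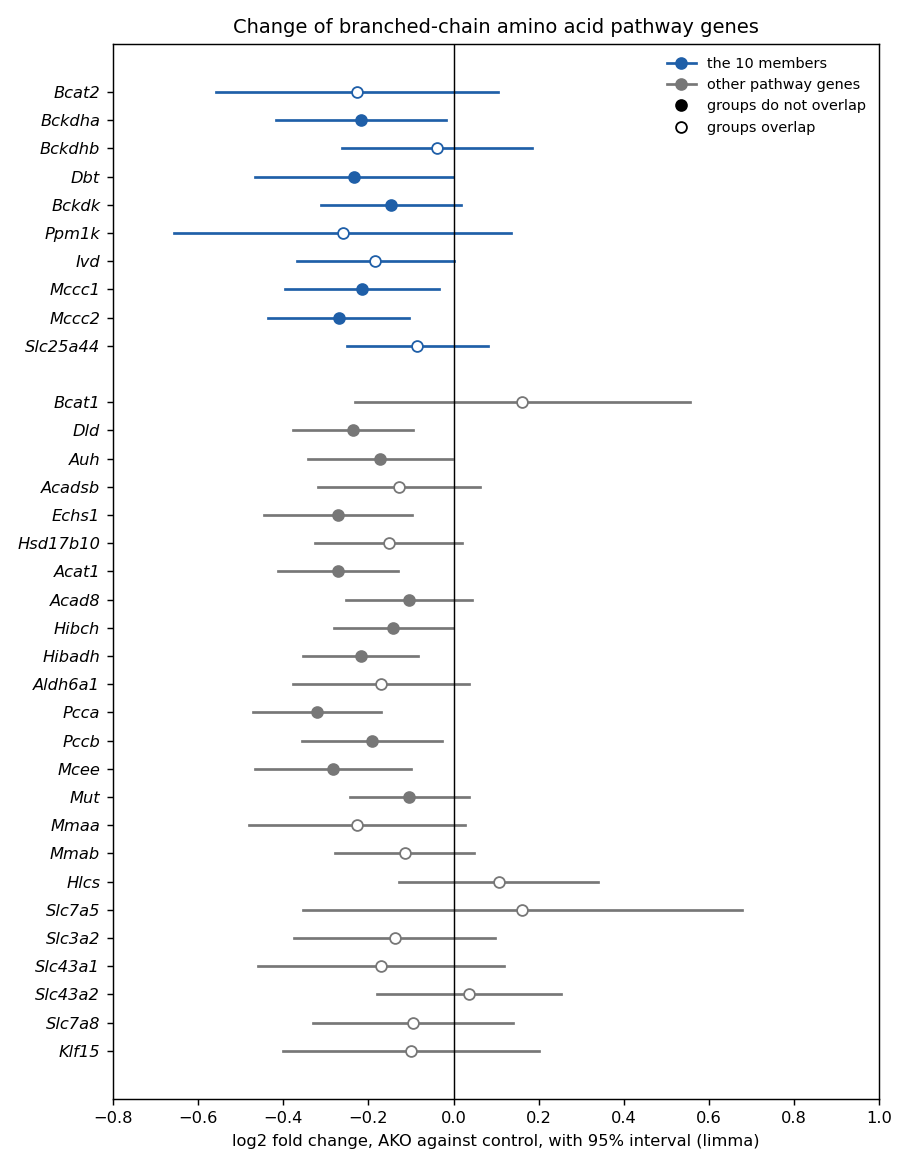
Log2 fold change of AKO against control (points) with the 95% interval from limma (lines) for the 10 genes (blue) and other genes of the pathway that are named in the text (gray), with filled points where the groups do not overlap. The 10 genes lie between -0.27 and -0.04, with 5 intervals wholly below 0.

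Intervals bound how large a difference the data allow. The lowest bound among the 10 was -0.66, for Ppm1k, which is 63.5% of the control level, and the highest bound was 0.18, for Bckdhb. The interval lay wholly below 0 for 5 of the 10 genes and included 0 for the other 5. These intervals are not adjusted for the number of genes tested.

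Transcript levels within the pathway were compared per kilobase of the principal transcript, as control means of the normalized count. Bckdha was the highest at 3239.6 ± 348 and Bcat2 followed at 2587 ± 382, so that the first enzyme and the E1 alpha subunit led the list. Bckdhb (1643 ± 232) and Ivd (1579 ± 100.3) came next and did not differ beyond their spread, since their control samples overlapped. Mccc1 was at 1351 ± 76.2 and its partner subunit Mccc2 at 1021 ± 25.9, and the carrier Slc25a44 at 871 ± 31.4 (SD, n = 3 for each gene). The kinase Bckdk (659.9 ± 47.1) and the E2 subunit Dbt (621 ± 88.6) overlapped each other. The phosphatase Ppm1k was far below all others at 51.3 ± 11.8, with a control mean 12.9 times lower than that of Bckdk. The order by mean was identical in the AKO samples. It depends on the transcript chosen: divided by all exonic bases of the gene, Mccc1 moved from rank 5 to rank 9 and Bckdhb passed Bcat2.

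**Figure D3:**
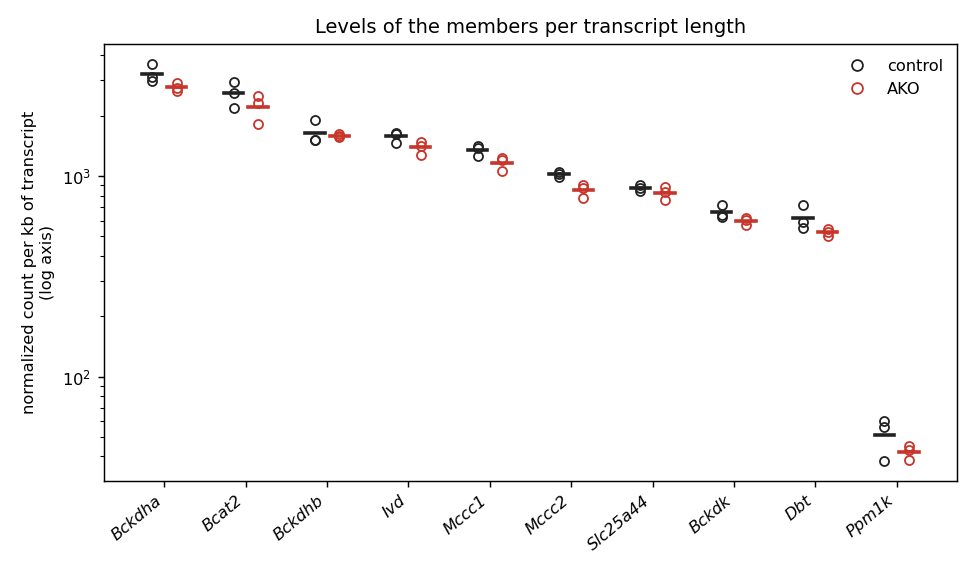
Normalized count per kilobase of transcript (log axis) of the 10 genes in control (black) and AKO (red) samples, with points for samples and lines for means, ordered by the control mean. Ppm1k lies far below the other genes in both groups, and the highest control mean is 63.1 times the lowest.

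Samples of a group did not vary alike across the 10 genes. The highest control sample was replicate 1 for 6 genes (Bcat2, Bckdhb, Dbt, Ppm1k, Ivd and Mccc2) and replicate 2 for 4 genes (Bckdha, Bckdk, Mccc1 and Slc25a44). Control replicate 3 was the highest for none and was the lowest of all 6 samples for Bckdhb and Ppm1k. The lowest AKO sample was replicate 2 for 6 of the 10. The enzymes of the tricarboxylic acid (TCA) cycle had another order, with control replicate 2 the highest control sample in 15 of 16 genes and AKO replicate 2 the lowest AKO sample in 1 of 16. Among 25 further genes of the pathway, described below, control replicate 2 was the highest control in 16 and AKO replicate 2 the lowest AKO sample in 18. Over all 13855 tested genes these counts were 5010 and 4889.

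**Figure D4:**
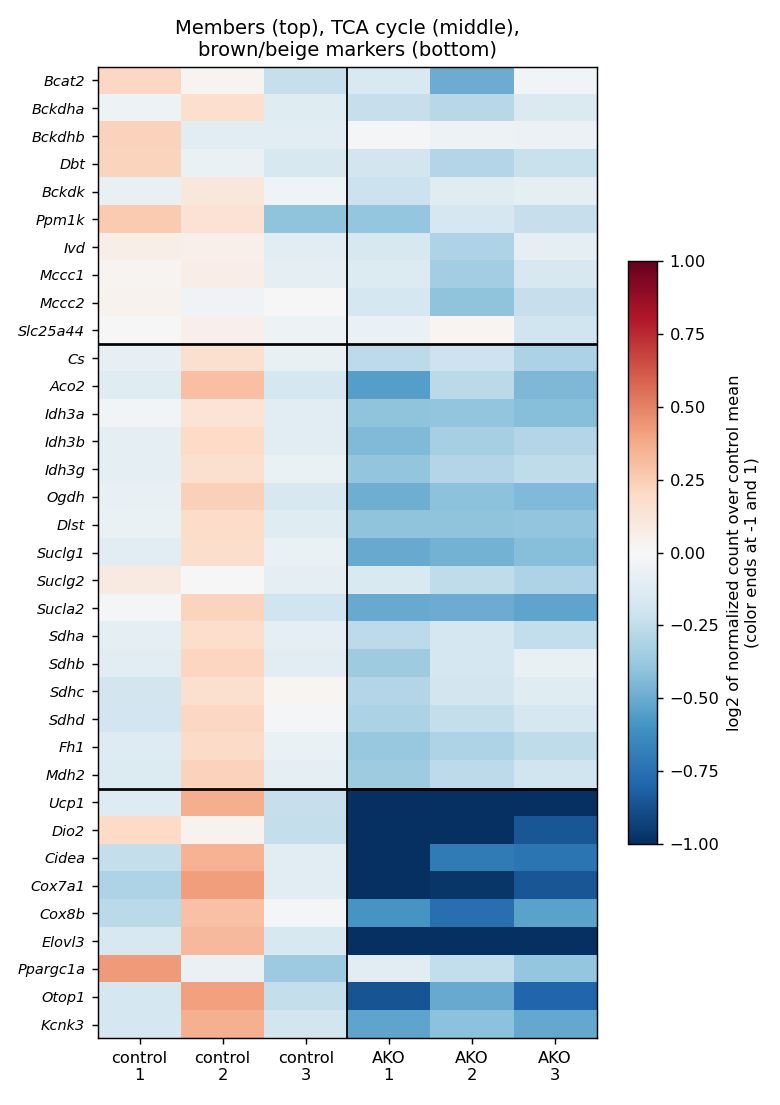
Log2 of the normalized count over the control mean in each of the 6 samples (columns) for the 10 genes (top), 16 TCA cycle genes (middle) and 9 brown and beige adipocyte markers (bottom), with the color scale ending at -1 and 1. Control replicate 2 is the highest control sample in 15 of 16 TCA cycle genes and in 4 of the 10 branched-chain amino acid genes.

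A further 25 genes of branched-chain amino acid metabolism were listed by role, from the shared E3 subunit to the plasma membrane carriers. Of these, 0 passed the test in limma or edgeR in either direction, and 2 did in DESeq2 (Acat1 and Pcca, both lower, where 0.757% of all genes were called lower). The median log2 fold change was -0.15, 21 of 25 were below 0, and 9 had an unadjusted p under 0.05 in limma, all lower, against 4.69% of all genes. In 12 of the 25 every AKO sample was below every control, against 8.31% of all genes, and in 0 above, against 6.14%. Of the 25 genes, 17 encode mitochondrial enzymes of the branches and of propionyl-CoA handling or Dld, all 17 were below 0, and these 17 include all 12 genes with groups that did not overlap.

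Further along the leucine branch, Auh (methylglutaconyl-CoA hydratase) had 1342, 1474 and 1263 in control and 1182, 1187 and 1244 in AKO samples (log2 fold change -0.17). Its highest AKO sample nearly reached the lowest control. In the isoleucine branch, the thiolase Acat1 had 7657, 8058 and 7525 in control and 6617, 6208 and 6432 in AKO samples, a wide separation (log2 fold change -0.27, adjusted p = 0.304 in limma and 0.0167 in DESeq2). Echs1, the enoyl-CoA hydratase of this and the valine branch, had 5869.5, 6501 and 5888 in control and 4939.8, 4754 and 5434 in AKO samples (log2 fold change -0.27). Acadsb (short and branched-chain acyl-CoA dehydrogenase) and Hsd17b10 overlapped between groups, at log2 fold changes of -0.13 and -0.15. Acadsb was at -0.068 without control replicate 1, and Hsd17b10 at -0.089 without control replicate 2.

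In the valine branch, every AKO sample was below every control in 3 of 4 genes, against 8.31% of all genes. Hibadh, which oxidizes 3-hydroxyisobutyrate, had 6117, 6477 and 6193 in control and 5507, 5217 and 5429 in AKO samples (log2 fold change -0.22). Hibch, which releases that acid from CoA, had 3419, 3447 and 3135 in control and 3007, 3047 and 3004 in AKO samples (log2 fold change -0.14). Acad8, the isobutyryl-CoA dehydrogenase, had 735, 779 and 723 in control and 679, 701 and 699 in AKO samples (log2 fold change -0.10). The difference was thus smaller at the first step of the branch than at Hibadh, although the differences between genes were not tested. Aldh6a1, the last enzyme of the branch, overlapped between groups at -0.17, and without control replicate 1 it was at -0.087.

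Valine and isoleucine both yield propionyl-CoA, and the enzymes that carry it to succinyl-CoA were all below the control mean in AKO samples without passing the limma test. Pcca, the biotin-carrying subunit of propionyl-CoA carboxylase, had 2987, 3162 and 2808 in control and 2466, 2329 and 2371 in AKO samples. This was the largest difference among the 25 genes, a log2 fold change of -0.32 (adjusted p = 0.254 in limma and 0.0132 in DESeq2). Its partner subunit Pccb had 5982, 6575 and 5628 in control and 5404, 5212 and 5275 in AKO samples (log2 fold change -0.19). Mcee, the epimerase, had 453, 494 and 512 in control and 398, 384 and 416 in AKO samples (log2 fold change -0.28). The cobalamin-dependent mutase Mut had 3252, 3049 and 2928 in control and 2843, 2875 and 2861 in AKO samples (log2 fold change -0.10, and -0.063 without control replicate 1). In all 4 genes the AKO samples lay close together below the controls. Mmaa and Mmab, which serve the cobalamin cofactor of the mutase, had overlapping groups at -0.23 and -0.11. Mmaa was at -0.34 without control replicate 1, and Mmab at -0.069 without control replicate 2.

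Outside the mitochondrial enzymes, no gene of the pathway separated the groups. Of all genes, 8.31% had every AKO sample below every control and 6.14% had every AKO sample above. The difference from the mitochondrial enzymes was not tested. The cytosolic transaminase Bcat1 had a log2 fold change of 0.16, and Hlcs, which attaches biotin to the carboxylases, of 0.11. Bcat1 ran from 0.054 (without control replicate 1) to 0.28 (without control replicate 3). Hlcs ran from 0.040 (without control replicate 2) to 0.19 (without control replicate 1). The amino acid transporters of the plasma membrane ranged from -0.17 (Slc43a1) to 0.16 (Slc7a5), with Slc3a2 at -0.14, Slc7a8 at -0.10 and Slc43a2 at 0.04. Slc43a1 was at -0.038 without AKO replicate 2, and Slc3a2 at -0.050 without control replicate 1. Klf15, a transcription factor known to raise expression of branched-chain amino acid genes, had 1832, 1915 and 1682 in control and 1709, 1386 and 2025 in AKO samples, so that AKO replicates 2 and 3 enclosed all controls (log2 fold change -0.10).

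The closest relative of BCKDH is the pyruvate dehydrogenase (PDH) complex, which has its own kinases and phosphatases and the same E3. Among 11 PDH genes without Dld, 0 passed the limma test, every AKO sample was below every control in 2 (8.31% of all genes), and the median log2 fold change was -0.08. The largest difference was in Pdk4, a PDH kinase, with 5438, 8743 and 4959.7 in control and 2587, 2996 and 3031 in AKO samples (log2 fold change -1.11, adjusted p = 0.205 in limma and 0.00700 in DESeq2). All AKO samples of Pdk4 were far below all controls, whereas the BCKDH kinase Bckdk had a log2 fold change of -0.15. The next in size were Pdp2, a PDH phosphatase, at -0.31 and Pdk2 at -0.27 (-0.15 without control replicate 2). The difference between Pdk4 and Bckdk was not tested.

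Among 16 TCA cycle genes, 0 passed the limma test and 8 passed DESeq2, all lower (0.757% of all genes), and 13 had every AKO sample below every control (8.31% of all genes). Their median log2 fold change was -0.32, with all 16 between -0.51 and -0.20, against a range from -0.27 to -0.04 for the 10 branched-chain amino acid genes. The largest differences were in Sucla2 (-0.51) and Suclg1 (-0.47), subunits of succinyl-CoA synthetase, and in Ogdh (-0.44), the E1 of the 2-oxoglutarate dehydrogenase complex. DESeq2 gave these genes adjusted p-values of 0.000287, 0.00018 and 0.00198, and for the 10 genes of branched-chain amino acid catabolism the smallest DESeq2 adjusted p was 0.146 (0 called). The difference between the lists was not tested, since their genes were measured in the same samples.

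**Figure D5:**
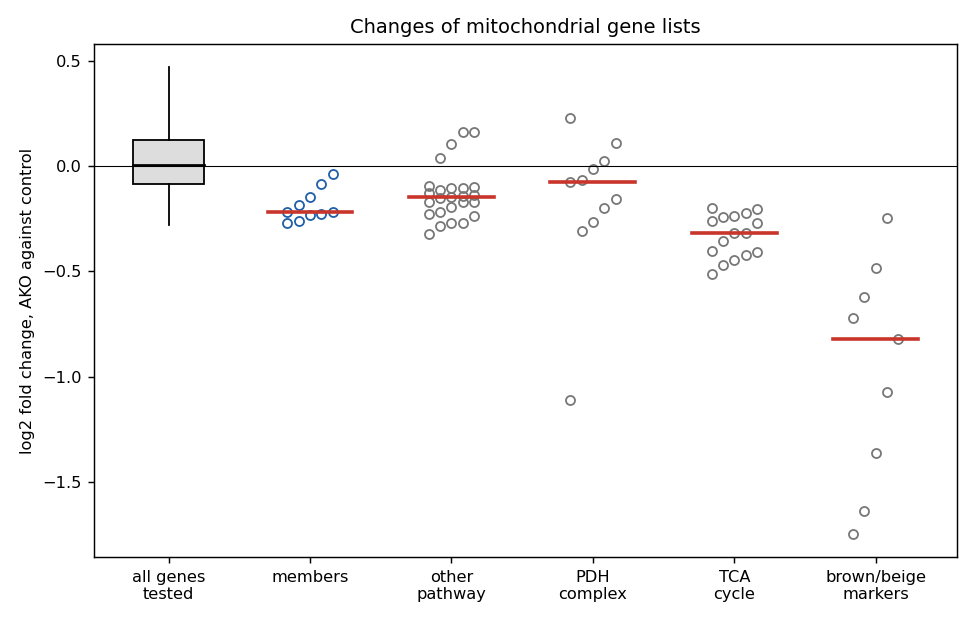
Log2 fold change of AKO against control for the 10 genes (members), 25 other pathway genes, 11 PDH genes, 16 TCA cycle genes and 9 brown and beige adipocyte markers, with red lines for medians. The box for all 13855 tested genes shows the median and the 25th to 75th percentile, with whiskers at the 5th and 95th percentile, and the median of the 10 genes (-0.22) lies below the lower edge of the box. The box gives the spread of single genes, so it is no test of the median of a list.

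Levels of cell type markers were summed in each sample. The sums of brown and beige and of adipocyte markers separated the groups, while those of skeletal muscle, macrophage and mammary epithelium overlapped. The summed level of 9 brown and beige adipocyte markers was 31758 to 45874 in control and 14569 to 17987 in AKO samples, and Ucp1 was at 16827 to 25393 against 4836 to 7801. Ucp1 had a log2 fold change of -1.75 (adjusted p = 0.0703 in limma and 1.97e-06 in DESeq2). Of the 9 markers, limma called 1 (0.0144% of all genes) and DESeq2 called 8 (0.998% of all genes). In 8 of the 9 every AKO sample was below every control, against 8.31% of all genes. The median log2 fold change of the 9 was -0.82, none of the 9 was at 0, and their part in the lower levels of the 10 genes was not tested. The sum of 8 adipocyte markers was 349710 to 374718 in control and 315029 to 345044 in AKO samples. In 1 of the 8 every AKO sample was below every control, against 8.31% of all genes. Skeletal muscle markers (12 genes, none at 0) summed to 167, 27268 and 14961 in the control samples and to 20129, 76890 and 118180 in the AKO samples, and although no marker separated the groups, muscle also expresses the pathway, and its part in these values was not tested. Macrophage markers (6 genes, none at 0) summed to 7876 to 10923 in control and 9745 to 12978 in AKO samples. All 6 had a log2 fold change above 0 (median 0.38). Of the 6, 4 were higher with an unadjusted p under 0.05 in limma, as were 611 of 13855 tested genes. In 0 of the 6 did every AKO sample lie above every control, against 6.14% of all genes. Mammary epithelium markers (5 genes) summed to 8.60 to 761 in control and 91.2 to 1130 in AKO samples, with 4 of the 5 at 0 in control replicate 2. The part of both in the result was not tested.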

How the data were processed

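Bulk RNA-Seq of iWAT was analysed in 3 control and 3 AKO samples. The authors aligned reads with STAR to the mouse genome (mm10 per the labels), obtained counts with featureCounts and scaled each sample by its DESeq2 size factor. The deposited signal is therefore a normalized read count, not corrected for length, and the sources used here do not state whether strand was used. Columns with log2 fold changes and p-values from the authors' own comparison were deposited beside it and left unused. All values were whole multiples of the value of 1 read within 0.01 (100% of values), and 17570335 to 18373707 reads per sample were recovered on the listed genes.

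limma 3.58.1 (R 4.3.3) with a trend was fitted to log2(value + 1) for genes with a mean of at least 10 (13855 of 16538), with genotype as the only term, Benjamini-Hochberg adjustment and a threshold of 0.05. Fold changes are on this scale and slightly understate those of low genes. edgeR 4.0.16 and DESeq2 1.42.0 on recovered reads, TMM scaling, other filters and pseudocounts, a replicate block and leaving out each sample were alternatives. Fits were tested on simulated data with planted changes far larger than those of the 10 genes. That test does not show whether changes this small would be called. Replicate pairs within a group were not duplicates (chi-square of reads over degrees of freedom 10.4 to 21.2), and the SD of each of the 10 genes exceeded its counting error. Coordinates and lengths are from GENCODE (GRCm38), promoters from RefSeq (GRCm38.p6). The members and lists were chosen with earlier results of these data known. The genes named are all 10, the 25 others of the pathway except those not reported here, the 3 largest differences of the PDH and TCA lists, Nrg4 and Ucp1.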

Additional observations from a re-analysis of the deposited data

How the results depend on the processing

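None of the 10 genes passed the adjusted threshold in any of the 14 alternatives, and 139 of their 140 recomputed log2 fold changes were below 0. Over 43 genes chosen by the naming rule, 588 of 602 recomputed values kept their direction and side of the threshold, 8 newly passed it and 6 changed sign. Leaving out samples in turn changed the sign of 5 genes, whose log2 fold changes ran from -0.096 (without control replicate 3) to 0.074 (without control replicate 1) for Bckdhb, from -0.066 (without AKO replicate 2) to 0.34 (without AKO replicate 3) for Slc7a5, from -0.041 (without control replicate 1; -0.0019 without AKO replicate 1) to 0.10 (without AKO replicate 2) for Slc43a2, from -0.15 (without AKO replicate 1) to 0.0091 (without AKO replicate 2) for Slc7a8, and from -0.23 (without AKO replicate 3) to 0.042 (without AKO replicate 2) for Klf15. The ratio of Bckdk to Ppm1k ran from -0.052 (without control replicate 1) to 0.30 (log2 difference) when samples were left out in turn. The count of the 10 genes with every AKO sample below every control ran from 5 to 8 in the same way. The share of all genes was 11.4% to 15.1% with a sample left out and 8.31% with all samples. DESeq2 on recovered reads called 2 other pathway genes, 1 PDH gene, 8 TCA cycle genes and 149 genes in all (113 lower, 36 higher), where limma called 0, 0, 0 and 2. A filter of at least 10 in every sample gave 6 calls (4 lower, 2 higher), and leaving out samples gave 0 to 3 (0 to 2 lower, 0 to 1 higher). With the replicate number as a block, 2 genes were called (0 lower, 2 higher). Samples with the same number did not deviate together in every case (correlations 0.135, -0.351 and 0.240), so the numbers were not read as pairs. The unadjusted count of 5 of the 10 ranged from 1 (without control replicate 2 or AKO replicate 2) to 6 (without control replicate 3) over the alternatives. TMM scaling moved the median of all genes from 0.01 to 0.02 and that of the 10 genes from -0.22 to -0.20. With 3 pooled samples per group, an adjusted p above the threshold does not show that a gene was alike in both groups, and DESeq2 called Acat1 at a log2 fold change close to that of Mccc2.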
